A study of Mus musculus with 4 samples.

Results

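The genes described here are 39 genes of glucose metabolism and of the response to low oxygen, followed in microglia 24 h after an antibody was given. They were chosen by symbol, as the enzymes and transporters that take glucose to lactate, the enzymes of the pentose phosphate pathway, and a group of hypoxia genes. All 39 were found among the 19737 genes of the deposited count table, and all 39 passed the filter on low counts. The cells came from the brains of 20 mice in 5 groups of 4. Mice of all groups were homozygous for TfRmu/hu, in which the mouse transferrin receptor carries a human part. ATV:ISO or ATV:4D9 was given to WT;TfRmu/hu mice. AppSAA;TfRmu/hu mice, homozygous for a humanized App carrying mutations that cause familial Alzheimer's disease, received ATV:ISO, 4D9 or ATV:4D9. 4D9 is an antibody that activates TREM2, a receptor of microglia, and ATV, the antibody transport vehicle, is an Fc part that binds the transferrin receptor and so carries an antibody into the brain. ATV:ISO is an isotype control on the ATV, and the deposited label ATV-DNP02 was taken to mean it, a reading that the deposited texts do not spell out. Each mouse received a single intravenous dose of 10 mg/kg. The Fc of 4D9 carried LALAPG mutations and that of both ATV antibodies LALA, so the naked and the ATV antibody differ in Fc as well as in transferrin receptor binding. Over the whole study, AppSAA mice are listed as males aged 8 months and WT;TfRmu/hu mice as mixed in sex and aged 2 to 8 months, so the age of the WT mice sequenced is not fixed by these entries. 1 WT;TfRmu/hu mouse given ATV:ISO (replicate 4) is recorded as female. Below, WT and AppSAA stand for WT;TfRmu/hu and AppSAA;TfRmu/hu.

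Glycolysis splits glucose into pyruvate in the cytosol and yields ATP without oxygen, and lactate dehydrogenase turns pyruvate into lactate, which leaves the cell with a proton through monocarboxylate transporters. The pentose phosphate pathway branches off at glucose 6-phosphate, makes NADPH in its oxidative steps and exchanges sugar phosphates with glycolysis in its non-oxidative steps. HIF-1α, encoded by Hif1a, is a transcription factor that prolyl hydroxylases mark for degradation while oxygen is present, and its targets include many glycolytic genes and the hydroxylase gene Egln3. Microglia, the macrophages of the brain parenchyma, are known to shift between oxidative metabolism and glycolysis when they are activated.

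RNA of sorted live CD11b+ cells was measured by single-cell RNA sequencing of transcript 3′ ends, with molecules counted by unique molecular identifiers (UMIs). The deposited texts disagree on the sort (one also names Cd45) and on whether hippocampus was taken along with cortex. The table holds 74758 cells, 2193 to 6126 per mouse, and 17150296 to 102446549 UMIs per mouse. The median UMIs per cell were 6859 to 8173.5 in WT mice given ATV:ISO and 8444.5 to 9883.5 in AppSAA mice given ATV:ISO, against 13479 to 17290 and 13560 to 16475 with ATV:4D9. Microglial markers (8 genes) summed to 23699.6 to 24814 CPM (UMIs per 1000000 UMIs of the mouse) in WT mice given ATV:ISO and 16033 to 17449 with ATV:4D9, and to 15418 to 18635, 17176 to 17551 and 12696 to 14341 in AppSAA mice given ATV:ISO, 4D9 and ATV:4D9, whereas neuron markers summed to at most 1.98 CPM. Immediate early genes (15), which can rise when cells are handled, summed to 12098 to 15205 CPM in WT mice given ATV:ISO and 8500.1 to 10801 with ATV:4D9, and to 10199.8 to 14766, 11263 to 13153 and 8761 to 10086 in the AppSAA groups. Both sums were thus lower with ATV:4D9 than with ATV:ISO in each genotype, without overlap, and their part in the changes with ATV:4D9 was not tested. Erythrocyte genes summed to 484 CPM in AppSAA ATV:4D9 replicate 3 and to at most 1.48 CPM in each other mouse. All 5 markers of monocytes, cells that a CD11b+ sort would keep, were detected, and they summed to 7.62 to 11.2 CPM in WT mice given ATV:ISO, 10.8 to 15.4 with ATV:4D9, 7.61 to 13.7 in AppSAA mice given ATV:ISO, 8.35 to 12.4 with 4D9 and 26.6 to 36.0 with ATV:4D9. The last group, which overlaps no other, was high in Ms4a4c (15.1 to 23.5 CPM) and Plac8 (7.89 to 10.3 CPM), while Ccr2 (1.30 to 2.66 CPM), Ly6c2 (0.0682 to 0.266 CPM) and Chil3 (0.0853 to 0.225 CPM) were not above the range of AppSAA mice given ATV:ISO. Their part in the changes with ATV:4D9 in AppSAA mice was not tested. The cells were tagged and loaded in 4 pools with 1 mouse of each group per pool. No cell barcode sequence was shared by mice of a pool, and 543 were shared between pools. UMIs were summed per mouse, so that each mouse is 1 replicate. In such sums a change in the share of a cell state cannot be told apart from a change within each cell, and the deposited clusters are used further on to describe both.

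Levels are given as CPM and are not compared between genes, since they depend on how well each transcript is counted. Gapdh, Eno1, Gpi1 and Pfkm share near-identical stretches with other genes counted in the table, and Ldha, Ldhb, Pgk1, Pkm, Mif, Bnip3, Aldoa, Tpi1 and Pfkfb2 with copies elsewhere in the genome, mostly pseudogenes, so the counting could split or drop some of their reads. Differences are log2 fold changes ± standard error (SE) from a single edgeR quasi-likelihood fit to all 20 mice and 14058 genes, with trimmed-mean (TMM) normalization, 4 mice per group, and p-values adjusted over all genes tested. A fold change is therefore relative to the other genes. edgeR gives no SE for this test, so the SE was derived as the absolute log2 fold change divided by the square root of its F statistic. An adjusted p under 0.05 counts as a call. When UMIs per cell were compared instead, the median gene moved by 0.79 between WT mice given ATV:4D9 and ATV:ISO, by 0.18 between AppSAA and WT mice given ATV:ISO, by 0.47 between AppSAA mice given ATV:4D9 and ATV:ISO, by 0.42 between AppSAA mice given ATV:4D9 and 4D9, by -0.12 between AppSAA and WT mice given ATV:4D9 and by -0.30 in the interaction of genotype and ATV:4D9, all on the log2 scale. Falls named below are relative to that shift.

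In WT mice 26 of the 39 genes rose after ATV:4D9 and 4 fell (Ldhb, Hk2, Pfkfb2 and Pfkfb4), where 30.8% of all genes tested were called higher and 32.5% lower. The median log2 fold change of the 39 was 0.56, against -0.05 over all genes. Between AppSAA and WT mice, both given ATV:ISO, there were 22 rises and 1 fall (Pfkfb4) in AppSAA mice, on a background of 14.4% called higher and 13.7% lower, with a median of 0.54 against -0.06. In AppSAA mice ATV:4D9 went with 19 rises and 7 falls relative to ATV:ISO (background 27.9% higher and 27.1% lower), with a median of 0.34 against -0.03. This median was 0.18 without AppSAA ATV:ISO replicate 4 and at most 0.39 with any other mouse left out, whereas those of the first pair of comparisons stayed between 0.49 and 0.63 and between 0.49 and 0.60. Measured as UMIs per cell, the rises and falls became 37 and 0 in WT mice and 31 and 1 in AppSAA mice, where 70.5% and 55.3% of all genes were called either way. With the pool as a block in the model, 31, 31 and 30 of the 39 genes were called in these 3 comparisons, against 74.6%, 51% and 70.7% of all genes, and the blocked values given below for single genes are read against those shares. Eno2, with 0 to 39 UMIs per mouse, is 1 of the 22 rises and of the 7 falls. These comparisons share mice, since WT mice given ATV:ISO serve the first and the second and AppSAA mice given ATV:ISO the second and the third, so their likeness is not independent evidence.

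By pathway step, and leaving out Eno2 for its few UMIs, all 3 transporters and 7 of the 8 genes from triose phosphate to lactate rose in AppSAA mice given ATV:ISO, against 3 of the 9 from glucose to triose phosphate, 1 of 5 flux regulators, 5 of 6 hypoxia genes and 2 of 7 pentose phosphate genes. With ATV:4D9 in WT mice the counts were 3 of 3 transporters, 7 of 8 lower and 6 of 9 upper glycolytic genes, 1 of 5 regulators, 4 of 6 hypoxia genes and 5 of 7 pentose phosphate genes. With ATV:4D9 in AppSAA mice they were 2 of 3, 7 of 8, 4 of 9, 1 of 5, 1 of 6 and 4 of 7. Beside these stand the shares of all genes called higher given above, 14.4% with the AppSAA genotype, 30.8% with ATV:4D9 in WT mice and 27.9% with it in AppSAA mice, and the counts for regulators in all 3 comparisons and for hypoxia genes with ATV:4D9 in AppSAA mice are near or below what such a share gives. Falls in the last comparison were Ldhb, 3 of the 5 regulators (Pfkfb2, Pfkfb4 and Pdk1) and 2 of the 6 hypoxia genes (Hif1a and Egln3), those in WT mice were Ldhb, Hk2, Pfkfb2 and Pfkfb4, and with the AppSAA genotype Pfkfb4 alone fell. Median log2 fold changes of the 8 lower glycolytic genes were 1.73 (WT, ATV:4D9), 0.90 (AppSAA against WT, ATV:ISO) and 0.83 (AppSAA, ATV:4D9), while those of the upper genes were 0.41, 0.081 and 0.34. The upper medians moved with the mouse left out, from 0.26 (without WT ATV:ISO replicate 4) to 0.52 (without WT ATV:ISO replicate 3), from -0.064 (without AppSAA ATV:ISO replicate 1) to 0.24 (without AppSAA ATV:ISO replicate 4) and from 0.15 (without AppSAA ATV:4D9 replicate 3) to 0.46 (without AppSAA ATV:4D9 replicate 4). Whether the groups of genes differ from one another was not tested.

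**Figure D1:**
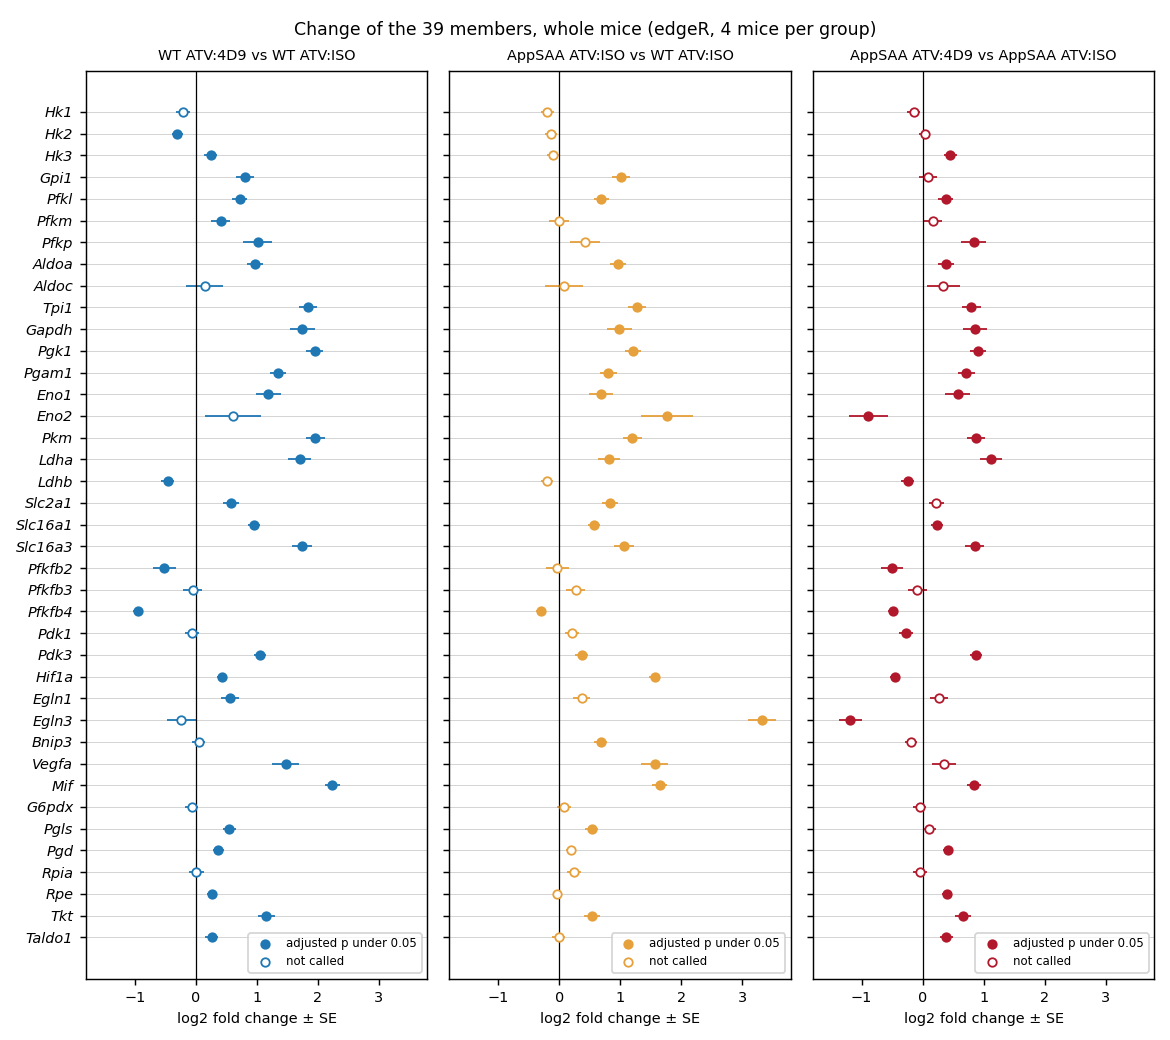
Log2 fold change (x axis, ± SE) of each of the 39 genes (y axis, ordered by pathway step) in the 3 main comparisons, with filled symbols for genes called by edgeR at an adjusted p under 0.05. Tpi1, Gapdh, Pgk1, Pgam1, Eno1, Pkm, Ldha and Mif lie to the right of 0 in all 3 panels, whereas Egln3 and Hif1a lie to the right with the AppSAA genotype (3.33 and 1.56) and to the left with ATV:4D9 in AppSAA mice (-1.18 and -0.45), while as UMIs per cell Hif1a was at 0.039.

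Glucose enters microglia through facilitated transporters, among them GLUT1, the product of Slc2a1. Slc2a1 stood at 29.6, 34.5, 28.3 and 29.7 CPM in the 4 WT mice given ATV:ISO, at 46.0, 38.4, 45.0 and 39.04 with ATV:4D9, at 48.0, 46.4, 56.5 and 41.4 in AppSAA mice given ATV:ISO and at 60.4, 48.8, 53.5 and 50.2 with ATV:4D9. Every WT mouse given ATV:ISO was below every mouse of these other groups. The rise was 0.58 ± 0.13 with ATV:4D9 in WT mice (edgeR, adjusted p = 6.09e-04) and 0.84 ± 0.13 in AppSAA mice given ATV:ISO (adjusted p = 5.36e-05), and in AppSAA mice ATV:4D9 gave 0.23 ± 0.13, which was not called (adjusted p = 0.140, with the pool as a block 0.22 ± 0.084, adjusted p = 0.0275). Endothelial cells carry much GLUT1, and a sort for CD11b+ cells would remove them. In the sorted cells 6 endothelial markers summed to 18.5 to 24.9 CPM in WT and 37.8 to 53.2 CPM in AppSAA mice given ATV:ISO, mostly Flt1 and Pecam1, with Cldn5, Ly6c1 and Slco1a4 under 0.42 CPM in every mouse. With ATV:4D9 they summed to less, 9.57 to 13.3 CPM in WT mice, in which Slc2a1 had risen, and 13.5 to 26.5 CPM in AppSAA mice. Their part in the Slc2a1 values was not tested.

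Lactate leaves through the transporters MCT1, encoded by Slc16a1, and MCT4, encoded by Slc16a3, the latter typical of cells that export lactate. Slc16a3 stood at 44.4, 42.8, 37.9 and 39.9 CPM in WT mice given ATV:ISO and at 148, 116, 125 and 119.9 with ATV:4D9. In AppSAA mice it was 80.3, 78.5, 76.9 and 67.2 CPM with ATV:ISO and 165, 106, 123 and 122 with ATV:4D9. The groups did not overlap within either genotype, and the AppSAA ATV:ISO group lay between the WT groups. The log2 fold changes were 1.75 ± 0.16 (WT, ATV:4D9, edgeR adjusted p = 1.19e-08), 1.06 ± 0.16 (AppSAA, adjusted p = 3.50e-05) and 0.85 ± 0.16 (AppSAA, ATV:4D9, adjusted p = 1.18e-04). Slc16a1 rose by 0.96 ± 0.10 with ATV:4D9 in WT mice (adjusted p = 6.40e-08) and by 0.57 ± 0.10 in AppSAA mice given ATV:ISO (adjusted p = 2.04e-04). Its rise of 0.24 ± 0.10 with ATV:4D9 in AppSAA mice (adjusted p = 0.0385) was 0.18 to 0.24 and not called without any one of AppSAA ATV:4D9 replicates 1 or 3 or AppSAA ATV:ISO replicates 1, 3 or 4. Without the cluster highest in cell cycle genes it was 0.079.

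Hexokinases trap glucose as glucose 6-phosphate. Hk2, the inducible hexokinase, stood at 252, 291, 237 and 274 CPM in WT mice given ATV:ISO and at 192, 225, 172 and 202 with ATV:4D9, without overlap. It fell by 0.30 ± 0.094 on the log2 scale (edgeR, adjusted p = 0.00855), but rose by 0.54 when measured as UMIs per cell, and it was -0.071 (adjusted p = 0.527) without the cluster highest in cell cycle genes. In AppSAA mice Hk2 was 202 to 227 CPM with ATV:ISO and 189.8 to 229 with ATV:4D9, which overlap, and the difference between AppSAA and WT mice given ATV:ISO was called only with the pool as a block (-0.13 ± 0.041, adjusted p = 0.0141). Hk3, a hexokinase of myeloid cells, was 26.4 to 31.4 CPM in AppSAA mice given ATV:ISO and 33.2 to 41.6 with ATV:4D9, and rose by 0.46 ± 0.10 (adjusted p = 7.12e-04). Its rise in WT mice of 0.24 ± 0.10 (adjusted p = 0.0426) was 0.18 to 0.26 and not called without any one of WT ATV:4D9 replicates 1, 3 or 4 or WT ATV:ISO replicates 2, 3 or 4. Hk1, the housekeeping hexokinase, was called in none of the 3 comparisons (-0.21, -0.19 and -0.15), and with the pool as a block the first and the second were (-0.21 ± 0.074, adjusted p = 0.0163, and -0.19 ± 0.075, adjusted p = 0.0463), while per cell the first was 0.63.

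Gpi1, which turns glucose 6-phosphate into fructose 6-phosphate, was 154, 140.1, 126 and 122 CPM in WT mice given ATV:ISO, 255, 201, 213 and 205 with ATV:4D9, and 254, 262, 236 and 209 in AppSAA mice given ATV:ISO. The WT control group lay below both other groups, with rises of 0.81 ± 0.15 (adjusted p = 6.78e-05) and 1.01 ± 0.15 (adjusted p = 2.31e-05). In AppSAA mice ATV:4D9 left Gpi1 at 216 to 279 CPM, 0.087 ± 0.14 from ATV:ISO (adjusted p = 0.632). Phosphofructokinase commits the sugar to glycolysis. Its liver-type gene Pfkl was 66.3 to 74.0 CPM in WT mice given ATV:ISO, 97.1 to 121 with ATV:4D9, 88.9 to 107 in AppSAA mice given ATV:ISO and 108 to 142 with ATV:4D9, rises of 0.72 ± 0.13 (adjusted p = 6.27e-05), 0.69 ± 0.13 (adjusted p = 3.69e-04) and 0.38 ± 0.13 (adjusted p = 0.0167). The last was not called without AppSAA ATV:4D9 replicate 1 (0.25) or without AppSAA ATV:ISO replicate 4 (0.31).

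The other phosphofructokinase genes were counted at a few CPM. Pfkp, the platelet type, was 0.641, 0.732, 0.716 and 0.777 CPM in WT mice given ATV:ISO and 1.30, 1.20, 1.46 and 1.42 with ATV:4D9, a rise of 1.02 ± 0.24 (adjusted p = 8.37e-04), and it rose by 0.84 ± 0.21 with ATV:4D9 in AppSAA mice (adjusted p = 0.00185). Pfkm, the muscle type, was 1.62 to 3.02 CPM in WT mice given ATV:ISO and 2.70 to 3.12 with ATV:4D9, which overlap. Its rise of 0.41 ± 0.16 (adjusted p = 0.0303) was not called without WT ATV:ISO replicate 4 (0.23), WT ATV:4D9 replicate 1 (0.35) or replicate 3 (0.39), nor without the cluster highest in cell cycle genes (0.26). Pfkm overlaps Gm26513 on the same strand, as Slc16a1 does Gm43581 and Gm43585 and Pgls does Fam129c, so that reads of these genes may be split or dropped.

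Aldolase cuts fructose 1,6-bisphosphate into a pair of triose phosphates. Aldoa rose from 288, 293, 268 and 271 CPM in WT mice given ATV:ISO to 563, 426, 522 and 518 with ATV:4D9 (0.98 ± 0.13, edgeR adjusted p = 1.97e-06). In AppSAA mice given ATV:ISO it stood at 485, 518, 474 and 451 CPM, a rise of 0.97 ± 0.13 (adjusted p = 1.02e-05). ATV:4D9 in AppSAA mice gave 699, 537, 608 and 532 CPM, a further 0.38 ± 0.13 (adjusted p = 0.0178). This last rise was 0.24 without AppSAA ATV:4D9 replicate 1 and 0.35 and 0.33 without AppSAA ATV:ISO replicates 3 and 4, and was then not called. Aldoc, the aldolase typical of astrocytes, was counted at 0.791 to 2.23 CPM in all mice and was called in no comparison. A list of 6 astrocyte markers summed to 61.5 to 166 CPM, mostly Slc1a3, with Aqp4 and Gfap under 0.83 CPM in every mouse.

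Tpi1, which makes the 2 triose phosphates interchangeable, was 127, 123, 115 and 121 CPM in WT mice given ATV:ISO and 468, 310.2, 424 and 405 with ATV:4D9. Its level in AppSAA mice was 262, 262, 276 and 239 CPM with ATV:ISO and 531, 344, 437 and 396 with ATV:4D9. The 4 groups formed 3 separate levels, WT control, AppSAA control and ATV:4D9 in either genotype, with rises of 1.84 ± 0.15 (WT, ATV:4D9, adjusted p = 2.91e-09), 1.28 ± 0.15 (AppSAA, adjusted p = 2.25e-06) and 0.80 ± 0.15 (AppSAA, ATV:4D9, adjusted p = 1.54e-04). Gapdh, which oxidizes glyceraldehyde 3-phosphate, was 894, 800.1, 654 and 620.2 CPM and 2747, 2116, 2211 and 2153 in the WT groups, and 1461, 1429.9, 1187 and 1102 and 2888, 2133, 1971 and 1906 in the AppSAA groups. It followed the same order, with rises of 1.75 ± 0.20 (adjusted p = 3.02e-07), 0.99 ± 0.20 (adjusted p = 8.08e-04) and 0.86 ± 0.20 (adjusted p = 0.00113). Gapdh, often used as a constant reference, thus had means of 742 ± 128 and 2307 ± 296 CPM (± SD, n = 4) in the WT groups. The Gapdh values are uncertain, because 98 loci carry a stretch nearly identical to the end of its transcript, 95 of them pseudogenes and 2 of them, Gm10358 and Gm3839, counted separately in the table.

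Pgk1 makes the first ATP of the pathway. It stood at 74.9, 77.1, 72.1 and 70.7 CPM in WT mice given ATV:ISO and at 295, 211, 270.0 and 273 with ATV:4D9. In AppSAA mice it stood at 146, 155, 156 and 142 CPM with ATV:ISO and at 319, 231, 262 and 254 with ATV:4D9. Both treated groups lay above both controls, and the AppSAA control above the WT control, with 1.95 ± 0.14 (adjusted p = 1.67e-10), 1.21 ± 0.13 (adjusted p = 8.15e-07) and 0.91 ± 0.13 (adjusted p = 7.80e-06). Pgam1, the next enzyme, rose by 1.35 ± 0.14, 0.81 ± 0.14 and 0.72 ± 0.14 in the same order, and its largest adjusted p was 1.57e-04. Enolase gives phosphoenolpyruvate, and Eno1, its ubiquitous form, rose by 1.19 ± 0.20 with ATV:4D9 in WT mice (adjusted p = 3.87e-05). Its rise with the AppSAA genotype of 0.69 ± 0.20 (adjusted p = 0.0149) was 0.59 and not called without AppSAA ATV:ISO replicate 1, and likewise 0.59 without WT ATV:ISO replicate 4. The change with ATV:4D9 in AppSAA mice was 0.57 ± 0.20 (adjusted p = 0.0210), 0.36 without AppSAA ATV:4D9 replicate 1 and 0.46 without AppSAA ATV:ISO replicate 4, both not called. The near-identical gene Eno1b is counted separately in the table. Eno2, the neuronal enolase, lay between 0 and 0.557 CPM in the 20 mice and is not read further, although it was called higher with the AppSAA genotype and lower with ATV:4D9 in AppSAA mice.

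Pyruvate kinase makes the last ATP and pyruvate, and Pkm encodes its muscle and its growth-associated forms, which 3′ counts do not separate. Pkm was 239, 212, 213 and 203 CPM in WT mice given ATV:ISO and 922, 642, 789 and 749 with ATV:4D9. AppSAA mice had 450.5, 442, 452 and 409 CPM with ATV:ISO and 957, 663, 730.5 and 692 with ATV:4D9. The lowest mouse given ATV:4D9 was above the highest mouse given ATV:ISO in both genotypes, and the log2 fold changes were 1.96 ± 0.16 (adjusted p = 1.29e-09), 1.20 ± 0.15 (adjusted p = 4.87e-06) and 0.88 ± 0.15 (adjusted p = 6.15e-05). AppSAA ATV:4D9 replicate 1 was the highest mouse of its group for Pkm, Ldha, Gapdh, Pgk1, Tpi1 and Aldoa.

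Lactate dehydrogenase is a tetramer of A and B subunits, of which the A subunit, from Ldha, favours lactate and the B subunit, from Ldhb, favours pyruvate. Ldha was 182, 176, 156 and 155 CPM in WT mice given ATV:ISO and 628, 433, 471 and 474 with ATV:4D9. AppSAA mice had 279, 275, 253 and 229 CPM with ATV:ISO and 708, 467, 497 and 457 with ATV:4D9. Ldha rose in all 3 comparisons without overlap of the groups, by 1.70 ± 0.18 (adjusted p = 1.02e-07), 0.82 ± 0.18 (adjusted p = 0.00171) and 1.12 ± 0.18 (adjusted p = 2.73e-05). Ldhb moved the other way. It was 602, 568, 536 and 521 CPM in WT mice given ATV:ISO and 402, 381, 373 and 338 with ATV:4D9, and 462, 412, 402 and 426 and 332, 383, 317 and 335 in the AppSAA groups. It fell by 0.46 ± 0.10 in WT mice (adjusted p = 5.25e-04) and by 0.25 ± 0.10 in AppSAA mice (adjusted p = 0.0448), whereas per cell it rose by 0.39 and 0.25. The fall in AppSAA mice was -0.27 to -0.19 and not called without any one of AppSAA ATV:4D9 replicates 3 or 4 or AppSAA ATV:ISO replicates 1, 2 or 4. It was also not called without the cluster highest in cell cycle genes (-0.21, adjusted p = 0.106) or with no filter on low counts (-0.23, adjusted p = 0.0888). Between AppSAA and WT mice given ATV:ISO the difference was -0.20 ± 0.10 (adjusted p = 0.143, with the pool as a block -0.20 ± 0.043, adjusted p = 8.33e-04).

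The ratio of Ldha to Ldhb UMIs within a mouse does not depend on how the mouse is scaled, and only its change is read here, since its level depends on how well each transcript is counted. As log2, it was -1.72, -1.69, -1.78 and -1.75 in WT mice given ATV:ISO and 0.64, 0.18, 0.34 and 0.49 with ATV:4D9. In AppSAA mice it was -0.72, -0.58, -0.67 and -0.90 with ATV:ISO, -0.49, -0.70, -0.66 and -0.80 with 4D9, and 1.09, 0.28, 0.65 and 0.45 with ATV:4D9. The groups given ATV:4D9 overlap each other and no other group. The difference in mean was 2.15 between the WT groups, 1.02 between AppSAA and WT mice given ATV:ISO, 1.34 between AppSAA mice given ATV:4D9 and ATV:ISO and 1.28 against 4D9, each with p = 0.0286 in a two-sided exact permutation test, the smallest value that 4 against 4 mice allow. In each of these except that against 4D9, Ldha lay higher and Ldhb lower in CPM without overlap. The ratios there had to separate, so the p-value adds no evidence to the values of the genes. The test also shuffled mice without regard to their pools. AppSAA mice given 4D9 and ATV:ISO differed by 0.055 (exact permutation p = 0.571), and AppSAA and WT mice given ATV:4D9 by 0.21 (exact permutation p = 0.4). Over these 6 comparisons the adjusted values of the exact permutation test were 0.0429, 0.571 and 0.48.

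**Figure D2:**
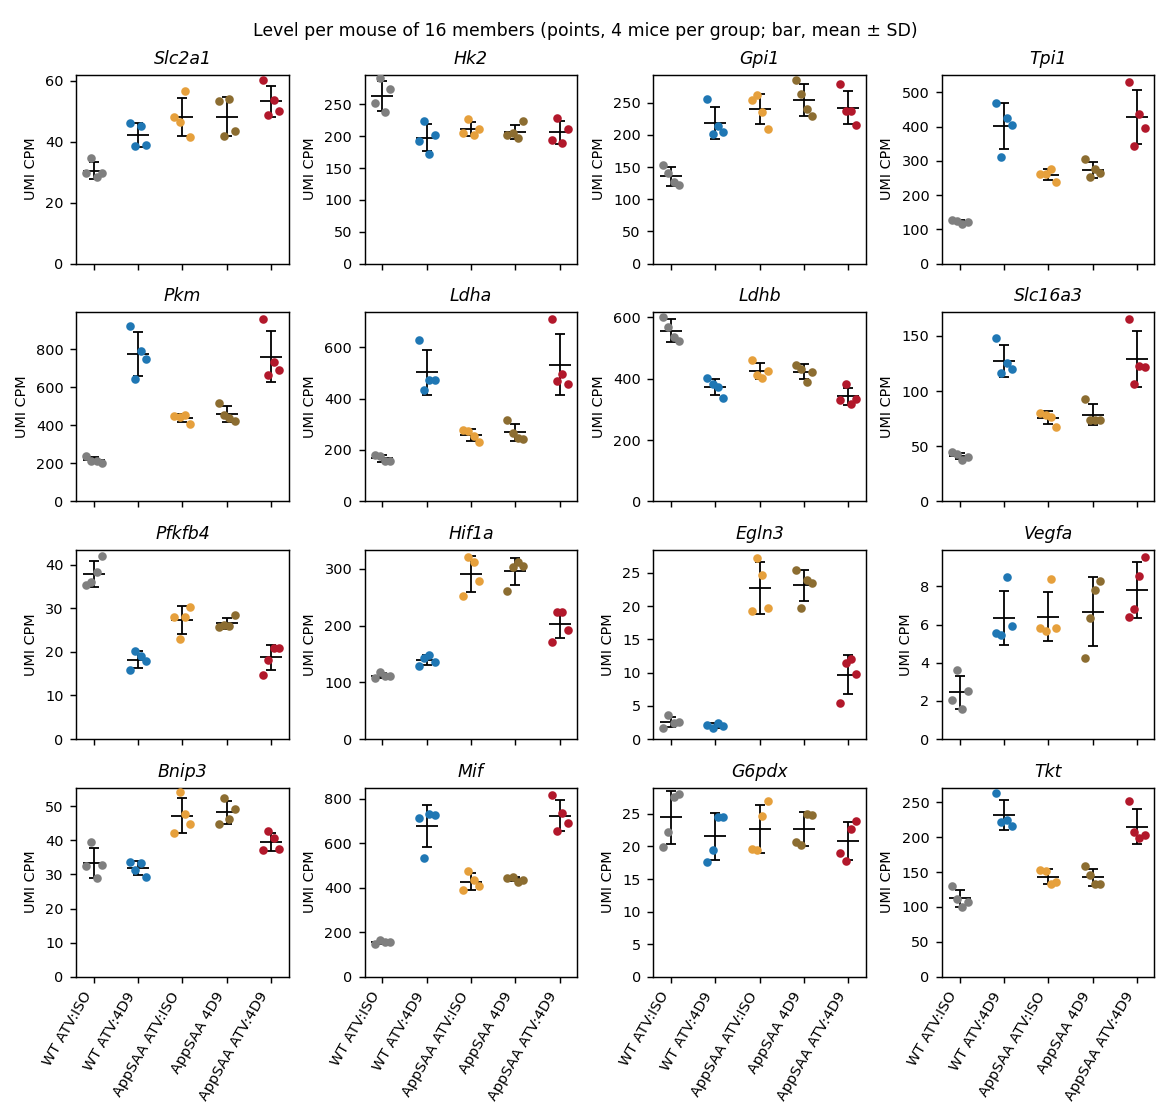
CPM (y axis of each panel, from 0) of 16 of the genes in each mouse (points) by group (x axis), with the mean and the SD of 4 mice as a bar. Pkm, Ldha and Mif stand highest in both groups given ATV:4D9, Egln3 and Hif1a in the AppSAA groups given ATV:ISO or 4D9, and, relative to other genes, Ldhb, Hk2 and Pfkfb4 in WT mice given ATV:ISO.

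The flux regulators were mixed. Pyruvate dehydrogenase kinases inhibit pyruvate dehydrogenase, which turns pyruvate into acetyl-CoA inside mitochondria. Pdk3 rose without overlap in all 3 comparisons, from 11.3, 11.1, 11.5 and 12.4 CPM to 22.8, 19.0, 24.0 and 22.9 in WT mice (1.05 ± 0.10, adjusted p = 1.88e-08) and from 13.3, 13.2, 12.7 and 13.5 to 25.4, 20.4, 22.4 and 23.0 in AppSAA mice (0.87 ± 0.10, adjusted p = 2.53e-07). Between AppSAA and WT mice given ATV:ISO its rise was 0.37 ± 0.10 (adjusted p = 0.00944). Pdk1, a known HIF-1 target, was not called in WT mice (-0.058 ± 0.11, adjusted p = 0.681) nor with the AppSAA genotype (0.21 ± 0.11, adjusted p = 0.170, with the pool as a block 0.21 ± 0.043, adjusted p = 4.52e-04). In AppSAA mice it was 57.4, 64.7, 82.1 and 78.0 CPM with ATV:ISO and 42.5, 55.0, 62.0 and 62.6 with ATV:4D9, which overlap, and fell by 0.28 ± 0.11 (adjusted p = 0.0428), but was 0.21 per cell. That fall was -0.30 to -0.20 and not called without any one of AppSAA ATV:4D9 replicates 1, 2 or 4 or AppSAA ATV:ISO replicates 2, 3 or 4, and it was -0.24 and not called without the cluster highest in cell cycle genes.

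The Pfkfb genes encode enzymes that set the level of fructose 2,6-bisphosphate, the activator of phosphofructokinase. Pfkfb4 was 35.4, 36.0, 38.3 and 42.0 CPM in WT mice given ATV:ISO and 15.8, 20.2, 19.1 and 17.8 with ATV:4D9, and 28.1, 22.9, 28.0 and 30.2 and 14.7, 18.2, 20.9 and 21.0 in the AppSAA groups. It was the only one of the 39 genes called lower in all 3 comparisons, by 0.95 ± 0.082 (adjusted p = 4.90e-09), 0.29 ± 0.081 (adjusted p = 0.0108) and 0.48 ± 0.081 (adjusted p = 4.76e-05), while its UMIs per cell changed by -0.11, -0.058 and 0.021, none of them called. Pfkfb2 lay between 1.40 and 3.89 CPM in all mice and fell by 0.51 ± 0.18 in WT mice (adjusted p = 0.0202) and by 0.50 ± 0.18 in AppSAA mice given ATV:4D9 (adjusted p = 0.0209), against 0.32 and -0.0083 per cell. The fall in WT mice was -0.45 to -0.42 and not called without any one of WT ATV:4D9 replicate 1 or WT ATV:ISO replicates 3 or 4, that in AppSAA mice was -0.45 to -0.43 and not called without any one of AppSAA ATV:4D9 replicate 1 or AppSAA ATV:ISO replicate 3, and without the cluster highest in cell cycle genes they were -0.26 and -0.40, also not called. Pfkfb3, the inducible form, was 77.1, 70.0, 102 and 96.7 CPM in WT mice given ATV:ISO and 52.9, 76.8, 96.4 and 83.8 with ATV:4D9. The groups overlapped, and Pfkfb3 was called in none of the 3 comparisons (-0.046 ± 0.15, 0.27 ± 0.15 and -0.086 ± 0.15), although the second was with the pool as a block (0.27 ± 0.063, adjusted p = 0.00194) and the first was 0.81 per cell.

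Among the hypoxia genes, Hif1a and Egln3 stood highest in AppSAA mice given ATV:ISO or 4D9. Hif1a was 108, 118, 111 and 112 CPM in WT mice given ATV:ISO and 128, 144, 149 and 137 with ATV:4D9. The levels in AppSAA mice were 252, 321, 313 and 279 CPM with ATV:ISO, 261, 304, 313 and 306 with 4D9 and 172, 223, 224 and 193 with ATV:4D9. No group given ATV:4D9 overlapped the control of its genotype. Hif1a rose by 1.56 ± 0.083 in AppSAA mice given ATV:ISO (adjusted p = 4.49e-11) and by 0.43 ± 0.081 with ATV:4D9 in WT mice (adjusted p = 1.15e-04). Hif1a of AppSAA mice fell by 0.45 ± 0.081 with ATV:4D9 (adjusted p = 8.49e-05), while its UMIs per cell differed by only 0.039 (adjusted p = 0.836), so the direction depends on the scale.

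Egln3 encodes PHD3, a hydroxylase of HIF-1α that is itself induced by HIF. It was 1.69, 3.56, 2.35 and 2.61 CPM in WT mice given ATV:ISO and 2.06, 1.65, 2.45 and 1.94 with ATV:4D9. In AppSAA mice it was 19.2, 27.2, 24.7 and 19.7 CPM with ATV:ISO, 25.4, 19.8, 23.9 and 23.4 with 4D9 and 5.48, 11.4, 12.1 and 9.77 with ATV:4D9. The WT groups overlapped each other and stayed below every AppSAA mouse, and ATV:4D9 placed AppSAA mice between the WT and the AppSAA controls. The rise with the AppSAA genotype, 3.33 ± 0.22 (adjusted p = 8.16e-10), was the largest of the 39 genes in that comparison. ATV:4D9 gave -0.23 ± 0.24 in WT mice (adjusted p = 0.409) and a fall of 1.18 ± 0.18 in AppSAA mice (adjusted p = 1.92e-05), and measured per cell the latter was still -0.68 (adjusted p = 0.0136) and the former 0.61 (adjusted p = 0.0388).

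Bnip3, a mitophagy receptor and HIF target, was 29.0 to 39.6 CPM in WT mice given ATV:ISO, 29.3 to 33.7 with ATV:4D9, 42.1 to 54.2 in AppSAA mice given ATV:ISO and 37.2 to 42.7 with ATV:4D9. It rose with the AppSAA genotype by 0.68 ± 0.11 (adjusted p = 6.08e-05), while ATV:4D9 gave 0.047 ± 0.11 in WT mice (adjusted p = 0.724) and -0.19 ± 0.11 in AppSAA mice (adjusted p = 0.133, with the pool as a block -0.19 ± 0.074, adjusted p = 0.0312). Egln1 encodes PHD2, the main hydroxylase at normal oxygen. It was 50.5, 57.2, 50.7 and 46.1 CPM in WT mice given ATV:ISO and 80.4, 68.6, 66.8 and 61.6 with ATV:4D9, a rise of 0.56 ± 0.14 (adjusted p = 0.00215), and it missed the threshold with the AppSAA genotype (0.37 ± 0.14, adjusted p = 0.0632) and with ATV:4D9 in AppSAA mice (0.27 ± 0.14, adjusted p = 0.116), but not with the pool as a block (0.36 ± 0.064, adjusted p = 1.72e-04, and 0.27 ± 0.062, adjusted p = 8.13e-04).

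Vegfa, the vascular growth factor, rose from 2.04, 3.61, 1.59 and 2.54 CPM to 5.56, 5.48, 8.47 and 5.92 with ATV:4D9 in WT mice (1.48 ± 0.22, adjusted p = 8.54e-06) and stood at 5.80, 5.69, 8.37 and 5.83 in AppSAA mice given ATV:ISO (1.57 ± 0.22, adjusted p = 2.01e-05). The AppSAA groups given ATV:ISO and ATV:4D9 overlapped (0.35 ± 0.19, adjusted p = 0.129, with the pool as a block 0.36 ± 0.16, adjusted p = 0.0466). Mif, a cytokine counted among HIF targets, had the largest rise of the 39 genes in WT mice. It went from 146, 163, 157 and 155 CPM with ATV:ISO to 712, 535, 731 and 727 with ATV:4D9 in WT mice, and from 387, 477, 434 and 409 to 816, 654, 735 and 692 in AppSAA mice. Within each genotype the groups did not overlap, and the AppSAA control lay above the WT control, with 2.24 ± 0.12 (adjusted p = 4.03e-12), 1.65 ± 0.12 with the AppSAA genotype (adjusted p = 2.63e-09) and 0.84 ± 0.12 with ATV:4D9 in AppSAA mice (adjusted p = 5.53e-06).

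HIF-1 binds the core letters RCGTG, that is ACGTG or GCGTG, and these letters were searched on both strands in the 250 bases before each RefSeq transcription start (mouse genome GRCm38.p6). All 39 genes were matched by symbol, with 56 start sites. At least 1 match was found for 34 of the 39 genes (87.2%), against 55.4% of 13946 genes of the table with a promoter entry, and ACGTG alone for 19 (48.7%) against 23.0%. Counted by start site, the shares were 78.6% of 56 against 50.1% of 17653, and 41.1% against 19.8% for ACGTG. The windows held a median of 14 CpG pairs, against 13 over all. The genes without a match were Gpi1, Tpi1, Eno2, Mif and Rpe. Of these, Tpi1 and Mif rose in all 3 comparisons. Ldha, Pgk1 and Slc16a3 also rose in all 3. A second group, Egln3 and Hif1a, was high with the AppSAA genotype and lower with ATV:4D9 in AppSAA mice. The promoters of the last 5 genes named, all with a match, are shown. Each is written 5′ to 3′ on the strand of the gene, ends next to the start site, and has the core letters of either strand in capitals, where CACGTG holds ACGTG once on each strand.
Ldha: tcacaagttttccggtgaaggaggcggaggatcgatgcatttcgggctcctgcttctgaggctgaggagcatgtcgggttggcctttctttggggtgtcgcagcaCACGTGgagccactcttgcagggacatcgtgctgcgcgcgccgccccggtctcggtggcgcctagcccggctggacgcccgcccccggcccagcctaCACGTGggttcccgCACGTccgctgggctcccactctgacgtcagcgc
Pgk1: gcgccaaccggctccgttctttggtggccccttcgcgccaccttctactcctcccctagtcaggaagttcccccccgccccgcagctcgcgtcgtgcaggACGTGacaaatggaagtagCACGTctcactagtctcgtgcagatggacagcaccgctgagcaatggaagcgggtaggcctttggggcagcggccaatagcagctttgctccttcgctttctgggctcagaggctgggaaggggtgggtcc
Slc16a3: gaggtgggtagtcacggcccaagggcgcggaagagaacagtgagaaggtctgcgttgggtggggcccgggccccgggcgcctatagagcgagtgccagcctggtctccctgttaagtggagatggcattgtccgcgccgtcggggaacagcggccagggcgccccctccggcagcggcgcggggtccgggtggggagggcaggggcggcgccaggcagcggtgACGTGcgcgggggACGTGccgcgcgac
Egln3: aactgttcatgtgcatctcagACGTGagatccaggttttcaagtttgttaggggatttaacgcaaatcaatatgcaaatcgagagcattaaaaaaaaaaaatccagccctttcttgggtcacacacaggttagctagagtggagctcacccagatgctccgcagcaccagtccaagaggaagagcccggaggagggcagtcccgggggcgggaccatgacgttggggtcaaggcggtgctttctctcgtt
Hif1a: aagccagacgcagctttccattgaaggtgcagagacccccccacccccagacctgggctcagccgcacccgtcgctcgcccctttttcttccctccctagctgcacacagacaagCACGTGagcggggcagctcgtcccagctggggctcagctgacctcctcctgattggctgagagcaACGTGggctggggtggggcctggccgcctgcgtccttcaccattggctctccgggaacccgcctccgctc
These windows lie at chr7:46845554-46845803 (plus strand, Ldha), chrX:106186850-106187099 (plus, Pgk1), chr11:120948817-120949066 (plus, Slc16a3), chr12:54203875-54204124 (minus, Egln3) and chr12:73907617-73907866 (plus, Hif1a). Ldha holds 5 matches, all ACGTG, Hif1a 3, Pgk1 and Slc16a3 2 each, and Egln3 1. Ldha has a second start site (window chr7:46846832-46847081, plus strand), which holds 1 match, GCGTG. A match is a description of the letters and not evidence of binding, and the genes shown from both groups hold it.

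Of the 3 oxidative pentose phosphate genes, Pgls and Pgd rose with ATV:4D9 in WT mice and G6pdx was not called. G6pdx encodes the first and rate-limiting enzyme, glucose-6-phosphate dehydrogenase. It was 19.9, 22.3, 27.6 and 28.1 CPM in WT mice given ATV:ISO and 17.7, 19.4, 24.5 and 24.6 with ATV:4D9, and 19.7, 19.5, 24.7 and 27.0 and 19.0, 17.8, 22.7 and 23.9 in the AppSAA groups. All groups overlapped and none of the changes was called (-0.069 ± 0.11, 0.076 ± 0.11 and -0.050 ± 0.11), although per cell G6pdx rose by 0.78 in WT mice given ATV:4D9, close to the shift of the median gene. Pgls, the lactonase, was 125 to 144 CPM in WT mice given ATV:ISO, 172 to 193 with ATV:4D9 and 160.0 to 183 in AppSAA mice given ATV:ISO, rises of 0.55 ± 0.11 (adjusted p = 1.69e-04) and 0.53 ± 0.11 (adjusted p = 8.67e-04), with 0.11 ± 0.11 on ATV:4D9 in AppSAA mice (adjusted p = 0.419). Pgd, which makes the second NADPH, rose by 0.37 ± 0.086 in WT mice (adjusted p = 8.14e-04) and 0.42 ± 0.085 in AppSAA mice with ATV:4D9 (adjusted p = 3.69e-04), and not with the AppSAA genotype (0.19 ± 0.086, adjusted p = 0.0969), unless the pool was a block (0.20 ± 0.051, adjusted p = 0.00391).

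Among the non-oxidative genes Tkt, the transketolase that links the pathway back to glycolysis, changed most. It was 129, 112, 100.3 and 108 CPM in WT mice given ATV:ISO and 263, 222, 225 and 216 with ATV:4D9, and 153, 152, 133 and 135 and 252, 207, 198 and 203 in the AppSAA groups. The groups did not overlap within a genotype, with 1.16 ± 0.14 (adjusted p = 4.32e-07), 0.54 ± 0.14 (adjusted p = 0.00572) and 0.66 ± 0.14 (adjusted p = 4.03e-04). Taldo1, the transaldolase, rose with ATV:4D9 in AppSAA mice, with 171 to 191 CPM on ATV:ISO and 208 to 238 on ATV:4D9 (0.39 ± 0.11, adjusted p = 0.00470). In WT mice its 0.26 ± 0.11 (adjusted p = 0.0385) was 0.19 to 0.27 and not called without any one of WT ATV:4D9 replicates 1 or 4 or WT ATV:ISO replicates 2, 3 or 4. Rpe, the epimerase, rose by 0.26 ± 0.077 in WT mice (adjusted p = 0.00576) and 0.40 ± 0.075 in AppSAA mice with ATV:4D9 (adjusted p = 1.75e-04), and Rpia, the isomerase, was called in none of the 3 (0.013 ± 0.12, 0.24 ± 0.12 and -0.048 ± 0.11), the second being called with the pool as a block (0.24 ± 0.048, adjusted p = 3.97e-04). With the AppSAA genotype 2 of the 7 genes of the pathway rose (Pgls and Tkt), against 14.4% of all genes.

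4D9 without the ATV gave no called change among the 39 genes relative to ATV:ISO in AppSAA mice (edgeR), where 0% of all 14058 genes were called. DESeq2 called 1 gene of all and limma-voom 0, and neither called any of the 39. Eno2 alone had an unadjusted p under 0.05, as had 0.562% of all genes. That share lies far below the 0.05 threshold itself, so p-values ran high in this fit, which has no pool block. The missing calls thus do not show that 4D9 left these genes unchanged. With the pool as a block none of the 39 was called either, and the share of all genes is not given here. Pkm was 518, 453, 437 and 423 CPM with 4D9 against 409 to 452 with ATV:ISO (0.077 ± 0.15, adjusted p = 1), and Mif was 445, 448, 427 and 435 (0.051 ± 0.12). Against 4D9, ATV:4D9 gave 19 rises and 5 falls, with 27.6% of all genes called higher and 26.7% lower, and a median of 0.25 (30 rises and 1 fall as UMIs per cell, with 52.7% of all genes called). The leading rises were Ldha (1.06 ± 0.18, adjusted p = 5.26e-05), Pdk3 (0.83 ± 0.10, adjusted p = 5.16e-07), Pgk1 (0.82 ± 0.13, adjusted p = 2.64e-05) and Pkm (0.80 ± 0.15, adjusted p = 1.64e-04). The rises of Aldoa, Eno1, Pfkl, Pfkp and Slc16a1 were each not called without some single mice. Eno1, at 0.50, was 0.29 without AppSAA ATV:4D9 replicate 1. Slc16a1 was 0.083 and not called without the cluster highest in cell cycle genes. Egln3 (-1.22 ± 0.18, adjusted p = 1.47e-05) and Hif1a (-0.48 ± 0.081, adjusted p = 4.30e-05) led the falls, with Pfkfb4, Ldhb and Pfkfb2, but per cell Hif1a was -0.039, Pfkfb4 0.0096 and Ldhb 0.21. The fall of Ldhb, -0.25 ± 0.10, was -0.27 to -0.19 and not called without any one of AppSAA 4D9 replicates 1, 2 or 4 or AppSAA ATV:4D9 replicates 3 or 4, and that of Pfkfb2, -0.43 ± 0.18, was -0.48 to -0.25 and not called without any one of AppSAA 4D9 replicates 3 or 4 or AppSAA ATV:4D9 replicates 1, 2, 3 or 4. Without the cluster highest in cell cycle genes these were -0.21 and -0.34, and with no filter on low counts -0.23 and -0.42, none of them called. With the pool as a block 30 of the 39 were called, against 69.9% of all genes, the 6 further ones being Bnip3, Egln1, Hk1, Pdk1, Pgls and Slc2a1. Both antibodies were given at the same dose, and the amount that reached the brain was not measured in these files.

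With ATV:4D9 in both genotypes, AppSAA and WT mice differed in 4 of the 39 genes, all higher in AppSAA mice (background 7.84% higher and 3.98% lower). They were Egln3 (2.38 ± 0.20, adjusted p = 1.39e-07), Hif1a (0.68 ± 0.081, adjusted p = 6.09e-06), Slc2a1 (0.48 ± 0.13, adjusted p = 0.0150) and Bnip3 (0.45 ± 0.11, adjusted p = 0.00683). Per mouse, Hif1a was 172 to 224 CPM in AppSAA against 128 to 149 in WT mice, without overlap. Slc2a1 was 0.36 to 0.44 and not called without any one of AppSAA ATV:4D9 replicate 1 or WT ATV:4D9 replicates 2 or 4. Pkm (0.12 ± 0.15), Ldha (0.23 ± 0.18) and Mif (0.24 ± 0.12) were not called. With the pool as a block 14 of the 39 were called, all higher, near the 31.4% called of all genes, the further ones with the smallest adjusted p being Pfkl (0.34 ± 0.059, adjusted p = 2.70e-04) and Hk2 (0.20 ± 0.041, adjusted p = 0.00102), and as UMIs per cell 2 were (5.96% of all genes).

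The log2 change with ATV:4D9 differed between genotypes for 12 of the 39 genes in the interaction term of the fit, 1 upward and 11 downward (background 3.79% and 5.35%). The same term is the genotype difference with ATV:4D9 less that with ATV:ISO, so a different starting level of AppSAA controls enters it. Without the pool block, only Hif1a of these 12 was also called between genotypes given ATV:4D9. A negative value means that the log2 change with ATV:4D9 was lower in AppSAA than in WT mice, as a smaller rise, a rise turned to a fall, or a larger fall. The 5 largest were Mif (-1.40 ± 0.17, adjusted p = 2.45e-05), Pkm (-1.08 ± 0.21, adjusted p = 0.00245), Tpi1 (-1.04 ± 0.21, adjusted p = 0.00309), Pgk1 (-1.04 ± 0.19, adjusted p = 0.00105) and Slc16a3 (-0.89 ± 0.22, adjusted p = 0.0131) among genes at 10 CPM or more. Hif1a (-0.88 ± 0.11, adjusted p = 5.63e-05) was next, with a rise in WT and a fall in AppSAA mice relative to other genes but 0.039 per cell in AppSAA mice, and Slc16a1, Gpi1, Pgam1 and Aldoa followed at -0.72 to -0.60. Vegfa, under 10 CPM, was at -1.13 ± 0.29 (adjusted p = 0.0182). Pfkfb4 was the upward one (0.46 ± 0.11, adjusted p = 0.0133), its fall being smaller in AppSAA mice, and it was 0.38 and not called without AppSAA ATV:4D9 replicate 4. Aldoa was -0.63 to -0.51 and not called without any one of AppSAA ATV:4D9 replicates 2, 3 or 4, AppSAA ATV:ISO replicates 1, 2 or 3, WT ATV:4D9 replicates 1, 3 or 4 or WT ATV:ISO replicates 2, 3 or 4. Pgam1 was -0.65 to -0.53 and not called without any one of AppSAA ATV:4D9 replicates 2, 3 or 4, AppSAA ATV:ISO replicates 1, 2 or 3, WT ATV:4D9 replicates 1, 3 or 4 or WT ATV:ISO replicates 3 or 4, and Gpi1 was -0.70 to -0.60 and not called without any one of AppSAA ATV:4D9 replicates 2 or 3, AppSAA ATV:ISO replicates 1 or 2, WT ATV:4D9 replicate 1 or WT ATV:ISO replicates 3 or 4. Without the cluster highest in cell cycle genes Vegfa was -0.86 and not called. With the pool as a block 25 genes were called (3 upward and 22 downward, against 30.5% of all genes either way), among them Gapdh (-0.92 ± 0.11, adjusted p = 1.35e-05) and Tkt (-0.51 ± 0.078, adjusted p = 1.01e-04), and as UMIs per cell 21, all downward (15.9% of all genes, with the median gene at -0.30). The interaction shares its control mice with the comparisons above.

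Other genes of these pathways were taken from lists that hold none of the 39. The share of all genes called higher and lower was that given above for each comparison (30.8% and 32.5%, 14.4% and 13.7%, and 27.9% and 27.1%), and several of the following counts lie near it. Of 33 further genes of glycolysis and pyruvate use tested, 17 rose and 11 fell with ATV:4D9 in WT mice (median 0.25), 7 rose and 6 fell with the AppSAA genotype (0.0026) and 13 rose and 8 fell with ATV:4D9 in AppSAA mice (0.16). Of 26 HIF pathway genes and targets, 10 rose and 8 fell, 12 rose and 3 fell, and 9 rose and 10 fell in the same order, with medians of 0.060, 0.48 and -0.062. Of 8 further pentose phosphate genes, 3 rose and 3 fell, 0 and 2, and 3 and 3, and of 15 upstream regulators such as Myc and Mtor, 3 rose and 7 fell, 1 and 2, and 2 and 6. Slc2a6, a lysosomal hexose transporter, rose by 3.03 ± 0.21, 1.55 ± 0.22 and 2.05 ± 0.19 (largest adjusted p 1.42e-05), while Slc2a5, the fructose transporter of microglia, fell by 1.14 ± 0.10, 0.54 ± 0.10 and 1.06 ± 0.10 (largest adjusted p 2.63e-04). Prps1, which draws ribose 5-phosphate into nucleotide synthesis, rose by 1.52 ± 0.12 and 1.20 ± 0.12 with ATV:4D9 in WT and AppSAA mice (adjusted p = 1.87e-09 and 5.66e-08). These genes were named after their values were seen.

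Single genes of the HIF list went different ways. Anxa2 rose by 3.09 ± 0.25 with the AppSAA genotype (adjusted p = 1.28e-08), was 0.21 ± 0.26 with ATV:4D9 in WT mice (adjusted p = 0.499) and fell by 1.24 ± 0.22 in AppSAA mice (adjusted p = 6.89e-05). Arnt2, a partner of HIF-α proteins counted at 0.449 to 3.57 CPM on group average, gave 3.00 ± 0.39, 0.0068 ± 0.46 and -1.54 ± 0.31 in that order (adjusted p = 7.43e-06, 0.991 and 3.10e-04). Higd1a, a mitochondrial protein of the hypoxia response, rose with ATV:4D9 by 1.37 ± 0.14 and 1.10 ± 0.14 (adjusted p = 5.11e-08 and 1.43e-06) and was not called with the AppSAA genotype (0.35 ± 0.14, adjusted p = 0.0691). Ddit4, a brake on mTORC1, fell by 2.07 ± 0.24 and 0.98 ± 0.24 with ATV:4D9 in WT and AppSAA mice (adjusted p = 3.66e-07 and 0.00153). These genes too were named after their values were seen.

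The deposited annotation divides the cells into 6 clusters at 1 of its resolutions, numbered 0 to 5, with 16866, 14963, 14445, 12993, 10502 and 4989 cells. These numbers are those of the annotation, and the study's own text numbers its clusters differently. The clusters were made from expression, so levels between clusters are a description with no test. Homeostatic markers were highest in clusters 0 and 3, DAM (disease-associated microglia) markers in cluster 1, cell cycle genes in cluster 4, interferon genes in cluster 5 and immediate early genes in cluster 3. Mean UMIs per cell were 7632 in cluster 0, 9969 in cluster 3, and 14713 to 20599 in the others. By mean CPM over mice with at least 20 cells, clusters 0 to 5 held the highest level of 8, 6, 9, 3, 9 and 4 of the 39 genes. These means rest on 20, 16, 20, 20, 16 and 17 mice of unequal groups, and levels differed between groups within a cluster. In the 3 AppSAA groups, each with 4 mice in every cluster, the counts were 6, 6, 13, 1, 9 and 4 with ATV:ISO, 6, 11, 11, 1, 8 and 2 with 4D9, and 7, 6, 9, 4, 7 and 6 with ATV:4D9. Such counts were not made over all genes, so they are not read as particular to the 39.

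Most lower glycolytic genes stood higher in clusters 1, 2, 4 and 5 than in clusters 0 and 3. Pkm was 241 ± 54.4 CPM in cluster 0 (mean ± SD over mice), 267 ± 86.9 in cluster 3 and 608 ± 108, 685 ± 151, 745 ± 128 and 533 ± 191 in clusters 1, 2, 4 and 5. Within the same mouse its median log2 ratio to cluster 0, on CPM + 1, was 1.48, 1.53, 1.51 and 1.05 in these clusters and 0.094 in cluster 3. Mif (1.96, 2.02, 1.94 and 1.58), Tpi1 (1.57, 1.69, 1.66 and 1.30) and Pgk1 (1.48, 1.73, 1.73 and 1.11) had a like profile. Ldha was higher in clusters 2 (1.53) and 4 (1.41) than in cluster 1 (0.99), and Slc16a3 likewise (1.42, 1.24 and 1.06). Aldoa (1.25) and Gpi1 (1.30) were highest in cluster 1.

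Egln3, Hif1a and Bnip3 stood highest in cluster 1. Egln3 was 34.7 ± 12.2 CPM there and 2.19 ± 1.44, 7.09 ± 5.39, 4.24 ± 4.18, 11.1 ± 10.7 and 9.97 ± 6.12 in clusters 0, 2, 3, 4 and 5. These means cover both genotypes, and in WT mice given ATV:4D9 Egln3 was 2.78 ± 0.481, 1.10 ± 0.264 and 1.64 ± 0.933 CPM in clusters 2, 4 and 5. Hif1a was 371 ± 95.9 CPM in cluster 1 against 118 ± 18.4 in cluster 0, with a median ratio of 1.73 (higher in 16 of 16 mice), and Bnip3 stood at 0.97 in cluster 1 and between -0.083 and 0.25 in the others. Vegfa was 2.24 in cluster 1 and 1.96 in cluster 2.

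Other genes stood highest in cluster 0 or 3. Ldhb was below cluster 0 in every mouse in each of the other 5 clusters, with ratios of -0.74, -0.48, -0.14, -0.64 and -0.62 in clusters 1 to 5. Pfkfb4 was at -0.94, -0.89 and -1.25 in clusters 1, 2 and 4, and Hk2 was lowest in cluster 4 (-0.83). Pfkfb3 was highest in cluster 3 (0.52, higher than cluster 0 in 20 of 20 mice), the cluster highest in immediate early genes. Of the pentose phosphate genes, Tkt stood above cluster 0 in every mouse in clusters 1, 2 and 4 (0.46, 0.79 and 0.90) and was at 0.47 in cluster 5, Pgls was at 0.50 and 0.45 in clusters 1 and 4, and G6pdx lay between -0.31 and 0.054.

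**Figure D3:**
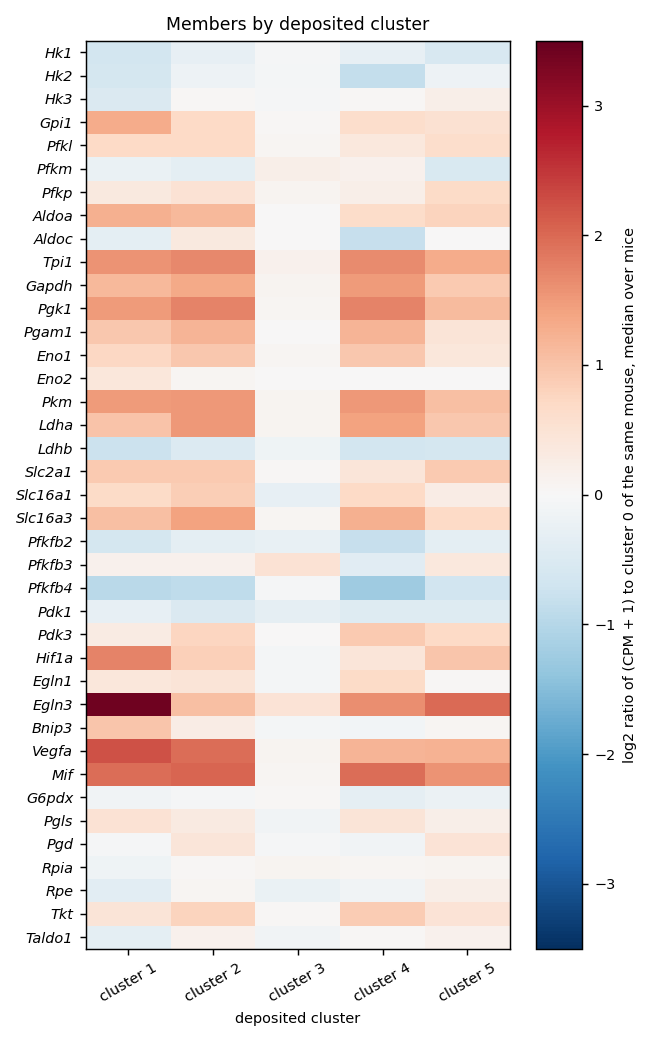
Heat map of the median over mice of the log2 ratio of CPM + 1 in clusters 1 to 5 (columns) to cluster 0 of the same mouse, for the 39 genes (rows, by pathway step), with red above and blue below 0. Cluster 3 is near 0 in most rows, the rows from Tpi1 to Ldha other than Eno2 are red in clusters 1, 2, 4 and 5, Egln3 is reddest in cluster 1 (3.39) and Ldhb, Pfkfb4 and Hk2 are blue.

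The groups filled these clusters differently. In WT mice given ATV:ISO clusters 0 and 3 held 52.7% and 40.6% of the UMIs (mean of 4 mice), and with ATV:4D9 clusters 2 and 4 held 46.3% and 44.4%. In AppSAA mice cluster 1 held 51.3% with ATV:ISO and 11.4% with ATV:4D9, where clusters 2, 4 and 5 held 36.2%, 27.3% and 21.7%. To describe what these shares alone would give, each cluster was assigned its mean level over the mice of the 2 groups compared (a choice made after seeing the values with levels over all 20 mice), and the log2 ratio expected from the UMI shares was set beside the observed log2 ratio of mean CPM, for 38 genes without Eno2. These cluster levels come from the same mice, so the comparison is a description. In WT mice the level of cluster 4 rests on ATV:4D9 mice alone, and those of clusters 1 and 5 mostly on mice of 1 treatment.

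Observed and share-only ratios had the same sign for 35 of 38 genes with ATV:4D9 in WT mice, 34 with the AppSAA genotype and 36 with ATV:4D9 in AppSAA mice. Over all 38 genes the median observed ratio was 0.44, 0.35 and 0.28 in these comparisons, against 0.49, 0.28 and 0.16 from shares alone. Genes with an observed ratio of at least 0.5 in size, picked by that ratio, mostly moved beyond the shares. The observed ratio was farther from 0, with the same sign, for 17 of 20, 15 of 16 and 15 of 15 such genes. Pkm moved by 1.84 in WT mice against 1.26 from shares, and Mif by 2.12 against 1.68. The largest gaps in WT mice went the other way, with Vegfa at 1.38 observed and 2.14 from shares and Aldoc at 0.033 and 0.79, both under 10 CPM in every mouse. Vegfa was also below the shares with the AppSAA genotype (1.39 against 1.86), and Aldoc was above them with ATV:4D9 in AppSAA mice (0.29 against -0.38). Egln3 was at -0.34 observed and -0.30 from shares in WT mice, where levels over all 20 mice would give 1.12, since Egln3 in clusters 2, 4 and 5 was several times higher in AppSAA mice given ATV:ISO than in WT mice given ATV:4D9. It was beyond the shares with the AppSAA genotype (3.15 against 2.34) and with ATV:4D9 in AppSAA mice (-1.23 against -0.73). Hif1a was 1.38 against 0.92 with the AppSAA genotype, and -0.52 against -0.26 with ATV:4D9 in AppSAA mice.

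**Figure D4:**
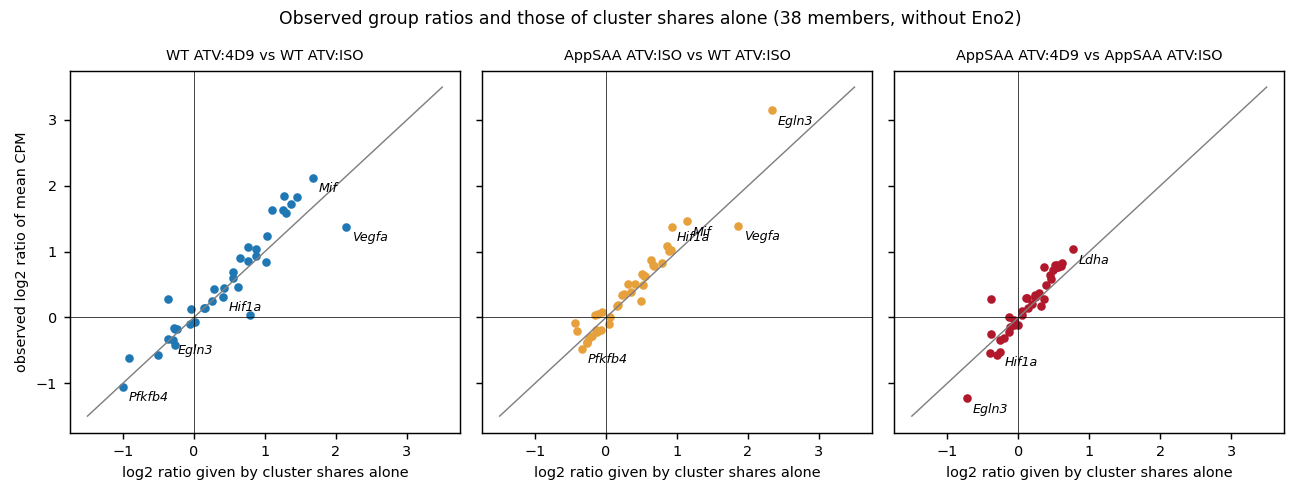
Observed log2 ratio of mean CPM (y axis) against the ratio that the shares of clusters alone give (x axis) for 38 genes in the 3 main comparisons, with the line of equality. Observed and share-only ratios have the same sign for 34 to 36 of the 38 genes, and Egln3 lies above the line with the AppSAA genotype (3.15 observed and 2.34 from shares). Of genes with an observed ratio of at least 0.5 in size, 17 of 20, 15 of 16 and 15 of 15 lie farther from 0 than shares give.

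Groups were then compared within clusters, on sums of at least 20 cells per mouse, with at least 3 mice per group and a separate edgeR fit for each cluster. Since a cell was placed in its cluster by its expression, such comparisons hold part of the expression fixed. With ATV:4D9 clusters 0 and 3 held 1.48% and 2.78% of the UMIs in WT and 1.16% and 2.30% in AppSAA mice. With ATV:ISO clusters 2, 4 and 5 held 3.03%, 1.81% and 2.60% in AppSAA mice, and cluster 2 held 2.13% in WT mice. Treatment comparisons there thus set few cells of 1 treatment against many of the other. A mouse entered with as few as 23 cells, which need not be typical of the cluster. Over 18 comparisons 64 results of the 39 genes were called, and 143 with the pool as a block, which also raised the share of all genes called, given beside each blocked count. In cluster 3, 10 of 37 genes tested rose with ATV:4D9 in WT mice and none fell (background 6.17% called), or 17 with the block (17.5%). Gapdh, Mif, Pgk1, Pkm and Tpi1 kept the call without each single mouse of the comparison, and Aldoa, Eno1, Ldha, Pgam1 and Slc16a3 did not, the last being 0.50 and not called without WT ATV:4D9 replicate 1. Pkm was 195 ± 18.3 CPM in that cluster in WT mice given ATV:ISO and 384 ± 55.4 with ATV:4D9 (1.07 ± 0.14, adjusted p = 3.57e-05). Mif (0.92 ± 0.10, adjusted p = 4.96e-06), Gapdh (0.98 ± 0.17, adjusted p = 8.59e-04) and Pgk1 (0.79 ± 0.12, adjusted p = 1.37e-04) followed. In AppSAA mice 6 of 37 genes rose in cluster 3 (4.33%), or 16 with the block (12.6%), of which Mif, Pgk1 and Pkm kept the call without each single mouse and Gapdh was 0.58 and not called without AppSAA ATV:4D9 replicate 1. In cluster 0, Pkm and Slc16a3 of 38 rose with ATV:4D9 in WT mice (1.47%), or 9 with the block (8.96%), and Pkm in AppSAA mice (0.667%), or 3 with the block (5.27%). Of these only Pkm in WT mice (0.72 ± 0.12, adjusted p = 8.92e-04) kept the call without each single mouse. Slc16a3 was 0.50 to 0.63 and not called without any one of WT ATV:4D9 replicates 1, 2, 3 or 4 or WT ATV:ISO replicates 2, 3 or 4, and Pkm in AppSAA mice was 0.49 to 0.59 and not called without any one of AppSAA ATV:4D9 replicates 1, 2 or 4 or AppSAA ATV:ISO replicates 2, 3 or 4.

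Between AppSAA and WT mice given ATV:ISO, none of 38 genes was called in cluster 0 (background 0.274%) and none of 37 in cluster 3 (0.189%), with 4 genes in each at an unadjusted p under 0.05 (4.52% and 3.88% of all genes), and 5 and 2 rises with the block (4.61% and 1.64%). In cluster 1 Hif1a alone of 39 rose (1.21%), from 227 ± 49.1 CPM in 3 WT mice to 429 ± 30.1 in 4 AppSAA mice (0.97 ± 0.14, adjusted p = 0.00148), or 6 calls with the block (2.68%). In cluster 2 Egln3 and Hif1a of 34 genes rose (0.281%), or 3 with the block (1.33%). Egln3 went from 1.75 ± 1.33 to 15.0 ± 1.69 CPM (3.24 ± 0.51, adjusted p = 0.00279, on 3 and 103 UMIs). Hif1a rose by 0.55 ± 0.12 (adjusted p = 0.0348) and was 0.46 to 0.56 and not called without any one of AppSAA ATV:ISO replicates 2, 3 or 4 or WT ATV:ISO replicates 1 or 4. In clusters 1 and 2, 12 of 39 and 8 of 34 genes had an unadjusted p under 0.05 (11.4% and 10.2% of all genes tested), and the medians of the genes were 0.22 (0.050 over all genes) and 0.19 (0.00074 over all genes), where a mouse entered with as few as 27 and 23 cells. Without the block no lower glycolytic gene was called in these 4 clusters, although in cluster 2 Tpi1 was at 0.47 ± 0.17 (adjusted p = 0.287) and Ldha at 0.42 ± 0.18 (adjusted p = 0.422), so the missing calls do not show that these genes did not differ. Which genes the block added in these clusters is not given here.

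In AppSAA mice, ATV:4D9 against ATV:ISO, none of 39 genes was called in cluster 1 (1.51%), 2 having an unadjusted p under 0.05 (10.3% of all genes) and 2 being called with the block (7.77%). Egln3 there was 39.3 ± 5.03 CPM with ATV:ISO and 42.6 ± 8.16 with ATV:4D9, and Pkm 614 ± 46.2 and 586 ± 65.0. In cluster 5, 15 of 34 genes rose and Pdk1 fell (29.7%), or 22 calls with the block (37.2%), led by Ldha (1.05 ± 0.16, adjusted p = 2.54e-05), Mif (1.00 ± 0.15, adjusted p = 2.36e-05) and Slc16a3 (0.98 ± 0.17, adjusted p = 1.58e-04). All but Hk3, Pdk1, Pdk3 and Slc2a1 kept the call without each single mouse, and Pdk1 was -0.38 to -0.33 and not called without any one of AppSAA ATV:4D9 replicates 1 or 2 or AppSAA ATV:ISO replicates 3 or 4. In cluster 4, 9 of 36 genes rose and 2 fell (24.5%), or 14 calls with the block (30.1%). Of the 11, Hk2, Vegfa and Egln3 kept the call without each single mouse. In cluster 2, 2 of 34 rose and 3 fell (13.2%), or 12 calls with the block (24.8%), and Egln3 and Hif1a kept the call. With ATV:4D9 in WT mice cluster 2 had 5 rises (Gapdh, Mif, Pgls, Pkm and Tpi1, 0.46 to 0.63) and a fall of Vegfa (5.88%), or 13 calls with the block (11%), and of these Mif alone (0.63 ± 0.14, adjusted p = 0.00667) kept the call without each single mouse, Vegfa being -1.92 to -1.62 and not called without any one of WT ATV:ISO replicates 1 or 2.

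Egln3 and Hif1a fell with ATV:4D9 inside clusters 2 and 4 of AppSAA mice. Egln3 was 21.8 ± 5.58 CPM in cluster 4 with ATV:ISO, 18.9 ± 8.56 with 4D9 and 2.47 ± 0.828 with ATV:4D9 (-3.12 ± 0.31, adjusted p = 1.74e-07), and in cluster 2 15.0 ± 1.69, 11.2 ± 1.79 and 4.74 ± 0.506 (-1.63 ± 0.19, adjusted p = 2.61e-06). The ranges over mice did not overlap between ATV:ISO and ATV:4D9 in either cluster. Hif1a changed by -0.48 ± 0.15 in cluster 4 (adjusted p = 0.0179, -0.46 to -0.29 and not called without any one of AppSAA ATV:ISO replicates 2 or 3) and by -0.47 ± 0.10 in cluster 2 (adjusted p = 0.00195). Vegfa went in opposite directions. In cluster 4 it rose from 2.41 ± 1.31 to 9.28 ± 1.31 CPM (1.84 ± 0.38, adjusted p = 8.76e-04, 11 UMIs with ATV:ISO), and in cluster 2 it fell from 15.1 ± 8.65 to 6.93 ± 1.74 (-1.19 ± 0.32, adjusted p = 0.0127), ranges that overlap, and was -0.69 and not called without AppSAA ATV:ISO replicate 3. Whether the effect on Vegfa differs between clusters was not tested.

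With ATV:4D9 in both genotypes, Egln3 was higher in AppSAA than in WT mice inside clusters 2, 4 and 5. It was 9.34 ± 2.78 against 1.64 ± 0.933 CPM in cluster 5 (2.40 ± 0.33, adjusted p = 3.49e-05), 2.47 ± 0.828 against 1.10 ± 0.264 in cluster 4 (1.19 ± 0.27, adjusted p = 0.0120) and 4.74 ± 0.506 against 2.78 ± 0.481 in cluster 2 (0.85 ± 0.16, adjusted p = 0.00161). The difference in cluster 4 was 1.03 to 1.13 and not called without any one of AppSAA ATV:4D9 replicate 3 or WT ATV:4D9 replicates 2 or 4. Egln3 alone of the genes was called in clusters 2 (2.07%) and 4 (2.76%), and Pfkfb4 (0.56 ± 0.14, adjusted p = 0.0174) with it in cluster 5 (6.87%), where it was 0.49 to 0.51 and not called without any one of AppSAA ATV:4D9 replicate 3 or WT ATV:4D9 replicate 4. None was called in clusters 0 (0.154%) and 3 (0.163%), with 3 and 2 genes at an unadjusted p under 0.05 (7.45% and 7.32% of all genes) and 0 in both with the block (1.86% and 1.7%). With the block 6, 3 and 10 genes were called in clusters 2, 4 and 5 (7.38%, 9.79% and 15.8%).

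**Figure D5:**
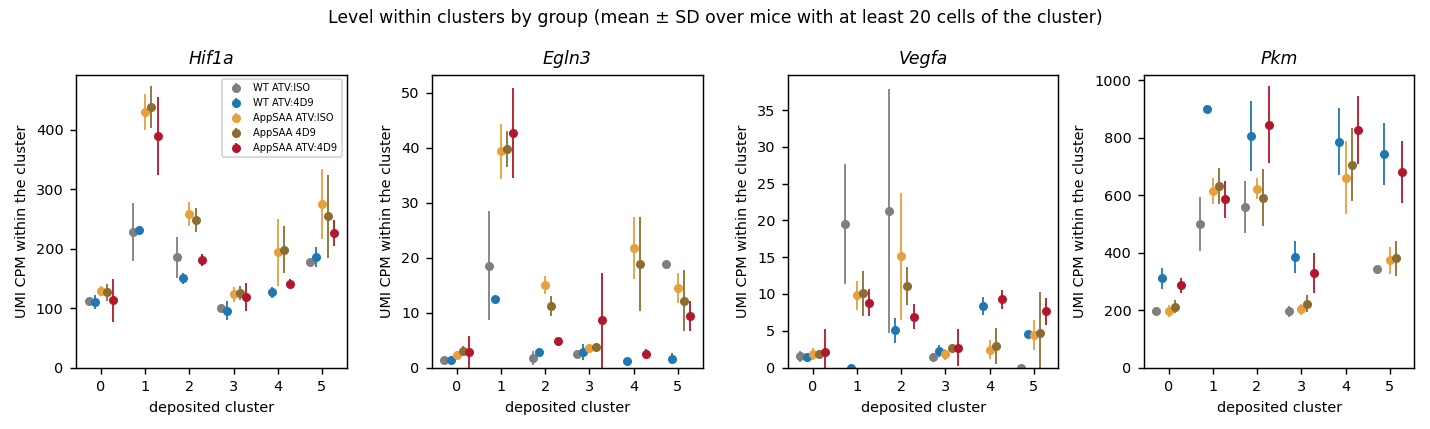
Mean CPM ± SD over mice with at least 20 cells (y axis) of Hif1a, Egln3, Vegfa and Pkm in each cluster (x axis) and group (colour). A point without a bar is a single mouse. In cluster 1 the AppSAA groups lie within 1 SD of one another for Egln3 and Pkm, and in cluster 4 Egln3 is at 21.8 CPM in AppSAA mice given ATV:ISO and at 2.47 CPM with ATV:4D9.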

How the data were processed

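The deposited values were UMI counts per gene and cell, made by the authors from reads aligned to mm10 with Cell Ranger 6.1.1 (per the labels) and handled in Seurat, with the number of mitochondrial UMIs given as a percent of each cell (deposited, at most 7.49%). Which cells and genes the authors removed, and how doublets were treated, is not given in the sources used here. No cell was removed here, and leaving out 7141 cells over 25000 UMIs was an alternative. Group, mouse, pool and cluster of each cell were taken from the deposited annotation, since the 4 deposited samples are pools. Counts were summed per mouse (depth above) and tested in R 4.3.3 by edgeR 4.0.16 quasi-likelihood (genes kept by filterByExpr, TMM, glmQLFit and glmQLFTest, Benjamini-Hochberg adjustment over all genes, 20 mice in 1 fit), where the study used limma-voom. Replicate numbers are pool numbers. Mice of 1 pool deviated from their group means together in 40 of 40 pairs (correlation 0.143 to 0.607 over genes), so a fit with the pool as a block was an alternative, beside DESeq2 1.42.0, limma-voom (limma 3.58.1), RLE size factors, no low-count filter, UMIs per cell, no cluster 4 cells and leaving out each mouse. The tests were run on simulated counts with a fixed spread between mice, no pool effect and changes in few genes. That setting is simpler than these data, so it does not show how the tests perform on them. Whether each mouse is a separate litter or culture day is not stated, and p-values measure the spread between these mice. Promoters came from the RefSeq table of GRCm38.p6, matches to near-identical copies from the reference transcripts. The rule for named genes gave full statistics to up to 5 called genes per direction and comparison with the largest change and a mean of at least 10 CPM, and in the first comparison also to gate enzymes, transporters and regulators. Statistics of other members, some under 10 CPM, go beyond this rule, and these were chosen after their values were seen. The 39 genes and all lists were chosen with earlier results of these data known. Analyses used Python 3.11.15, pandas 2.3.3 and scipy 1.17.1.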

Additional observations from a re-analysis of the deposited data

Results flagged for a closer look

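Of 195 sets of 4 mice (39 genes in 5 groups), 13 had 1 mouse far from the other 3 by Dixon's 95% criterion on the gap to the nearest mouse as a share of the range, and chance gives about 1 in 20 sets of independent mice. The 4 mice of a group came from 4 pools, and mice of 1 pool deviated together, so the sets are not independent. In 9 of the 13 the lone mouse was replicate 1, that is from pool 1. AppSAA 4D9 replicate 1 was the lone mouse 5 times, for Pfkl (114 CPM), Pfkm (1.89 CPM), Pgam1 (251 CPM), Slc16a3 (92.7 CPM) and Hif1a (261 CPM). AppSAA ATV:4D9 replicate 1 stood apart for Ldha (708 CPM) and Tkt (252 CPM), and replicate 2 for Slc16a1 (15.6 CPM). WT ATV:4D9 replicate 1 stood apart for Gapdh (2747 CPM), replicate 2 for Mif (535 CPM) and replicate 3 for Vegfa (8.47 CPM). AppSAA ATV:ISO replicate 3 stood apart for Vegfa (8.37 CPM), and WT ATV:ISO replicate 1 for Eno2 (0 CPM).

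The log2 change with ATV:4D9 differed between AppSAA and WT mice in the edgeR interaction term for 12 genes. Of all genes tested, 3.79% were called higher and 5.35% lower in this term. Aldoa, Pgam1, Gpi1 and Pfkfb4 were not called without some single mice, nor was Vegfa without the cluster highest in cell cycle genes. The log2 difference of the effects (AppSAA minus WT) was -1.40 for Mif, -1.13 for Vegfa, -1.08 for Pkm, -1.04 for Tpi1, -1.04 for Pgk1, -0.89 for Slc16a3, -0.88 for Hif1a, -0.72 for Slc16a1, -0.72 for Gpi1, -0.63 for Pgam1, -0.60 for Aldoa and 0.46 for Pfkfb4.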

How the results depend on the processing

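Of 119 called results of the 39 genes over the 7 comparisons, DESeq2 and the fit with the pool as a replicate block kept 119, RLE size factors and limma-voom 118 each (Aldoa in AppSAA mice, ATV:4D9 against 4D9, was lost under both), no low-count filter 113 (Ldhb and Pdk1 in AppSAA mice, ATV:4D9 against ATV:ISO, Ldhb and Pfkfb2 against 4D9, and Hk2 and Pfkfb2 in WT mice were lost), leaving out cells over 25000 UMIs 116 and leaving out cluster 4 107. The block changed no call to not called and added 42. It raised the calls between AppSAA and WT mice given ATV:4D9 from 4 to 14, near the 31.4% of all genes then called. Those in the interaction rose from 12 to 25 (30.5% of all genes). Calls within clusters rose from 64 to 143, beside the shares of all genes given above for each cluster and comparison. UMIs per cell gave 2 and 21 calls in place of 4 and 12 (5.96% and 15.9% of all genes). Levels per cluster were highest in clusters 1, 2, 4 or 5 for 28 of the 39 genes, for 30 when cells were pooled, and for 32, 32 and 28 within AppSAA mice given ATV:ISO, 4D9 and ATV:4D9 (added after seeing the data). These are most of the clusters and no such count was made over all genes, so the counts are not read as particular to the 39. With cluster levels over all 20 mice in place of the 2 groups compared (levels chosen after seeing the data), the ratio from cluster shares turned from -0.30 to 1.12 for Egln3 with ATV:4D9 in WT mice, and 34, 35 and 35 genes in place of 35, 34 and 36 had the same sign observed and from shares. Within clusters, sums of at least 50 cells gave 47 calls and RLE size factors 67. The share of all genes called under these settings is not given here, so the counts are not read as a result about the 39 genes.

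Leaving out 1 mouse at a time gave 26 to 30 calls with ATV:4D9 in WT mice (58.8% to 61.4% of all genes called), 22 to 25 between AppSAA and WT mice given ATV:ISO (22.4% to 27.4%), 19 to 25 with ATV:4D9 in AppSAA mice (48.0% to 53.3%), 18 to 23 against 4D9 (46.9% to 52.9%), 0 for 4D9 against ATV:ISO (0%), 3 to 6 between AppSAA and WT mice given ATV:4D9 (7.75% to 12.2%), 9 to 18 in the interaction (6.79% to 13.2%) and 49 to 66 within clusters (3.97% to 5.41%).

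Measured as UMIs per cell, where 101 of the 119 kept direction and call, these log2 changes went from negative to positive. With ATV:4D9 in WT mice they were 0.32 for Pfkfb2, 0.81 for Pfkfb3, 0.78 for Pdk1, 0.54 for Hk2, 0.39 for Ldhb, 0.63 for Hk1, 0.61 for Egln3 and 0.78 for G6pdx. With ATV:4D9 against ATV:ISO in AppSAA mice they were 0.21 for Pdk1, 0.45 for Rpia, 0.25 for Ldhb, 0.31 for Bnip3, 0.021 for Pfkfb4, 0.35 for Hk1 and 0.039 for Hif1a. Against 4D9 they were 0.21 for Ldhb, 0.47 for Gpi1, 0.0096 for Pfkfb4 and 0.25 for Hk1. The shift of the median gene, given in the report, is part of these values by construction.

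Genes at a few CPM (Eno2, Aldoc, Pfkm, Pfkp, Pfkfb2 and, in WT mice, Egln3 and Vegfa) rest on few UMIs, and within clusters the minimum of 20 cells per mouse leaves wide errors for them. Where a call was lost in another fit, the cause was not tested.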
